A study of Arabidopsis thaliana with 10 samples.

Results

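The mature miRNA entries described here are those of the small RNA table whose identifiers run from MIMAT0001101 to MIMAT0009999, the middle of the order in which mature sequences entered the miRNA registry. They number 98 of the 428 entries of the table, against 108 with earlier and 222 with later identifiers, and are called members below. The working label for this range was mostly young miRNAs. The deposited table gives identifiers alone and the reference table matched 0 of them, so the age of the members was not checked, and no miRNA names, precursors, targets or sequences are given. Just outside the range, the last earlier entry, MIMAT0001019, had 107 and 80.4 CPM (counts scaled to TMM-adjusted library totals) in fve-8 replicates 1 and 2, against 63.9 and 39.5 CPM in WT replicates 1 and 2. The first later entry, MIMAT0011150, had 10.7 and 9.46 CPM in fve-8 and 3.94 and 7.08 CPM in WT.

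Plant miRNAs are cut from hairpin precursors in the nucleus by DICER-LIKE1 with the double-stranded RNA-binding protein HYL1 and the zinc-finger protein SERRATE, are methylated at the 3′ end by HEN1, and guide ARGONAUTE1 to matching transcripts, which are sliced or held from translation. A core of families is shared by most land plants, is usually abundant and targets many transcription factors. Other miRNAs occur in few related species, are usually scarce, and often have few or no known targets.

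Whole, untreated Arabidopsis thaliana seedlings of the Ler ecotype, 5 days old and grown on MS medium, were used throughout. The tested genotype was fve-8, labelled homozygous, and the other was E5-4, given in the design text as its wild type and written WT below. FVE is a WD40-repeat subunit of histone deacetylase complexes that acts in flowering time, and the series title links it to transgene silencing. Each genotype had 2 small RNA libraries and 3 total RNA libraries. Nothing in the labels says that numbered replicates were separate cultures, so p-values measure only the spread between these libraries, which may be technical.

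Small RNA totals were 376797 and 424637 counts in fve-8, against 1280675 and 967163 in WT, all on mature miRNA entries. A count of 0 therefore allows up to 3 counts, or 7.96 and 7.06 CPM in the fve-8 libraries and 2.34 and 3.10 CPM in the WT libraries, and these floors cover counting error only. In the RNA libraries FVE (AT2G19520) stood at 5.40 to 6.61 CPM in fve-8 and at 8.67 to 9.97 CPM in WT. The 3 leaf markers summed to 12249 to 14972 CPM in fve-8 and 16432 to 17047 CPM in WT, the 3 root markers to 29.7 to 33.6 CPM in fve-8 and 55.4 to 59.1 CPM in WT, and the 4 seed storage and oil body markers to 9.46 to 16.9 CPM in fve-8 and 57.6 to 99.7 CPM in WT. Leaf and root transcripts were present in all 6 libraries and no marker was at 0. All 3 marker sums were lower in fve-8 without overlap between the genotypes, and the part of tissue makeup in the small RNA differences was not tested. In bulk seedlings, fewer cells of a type and less RNA per cell cannot be told apart.

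Members were scarce beside the rest of the table. Of the 98, 18 had no count in any library, against 1 of 108 earlier and 18 of 222 later entries. Counts were found for 80 members, of which 46 passed the filter on low counts and were tested. By mean CPM over the 4 libraries, 2 members were at 1000 CPM or above, 13 between 100 and 1000 CPM, 35 between 10 and 100 CPM, 24 between 1 and 10 CPM and 6 below 1 CPM. Tested members had a median of 55.3 CPM, against 1603 CPM for tested earlier entries and 123 CPM for tested later ones. Most earlier entries had counts near-equal to those of another entry and may hold the same reads, so these medians are not over independent entries. The most abundant member was at 1848 CPM, whereas the most abundant entry of the table was at 62134 CPM. The 12 most abundant members carried 80.5% of the members' mean CPM, and they include 2 pairs of members with near-equal counts.

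**Figure D1:**
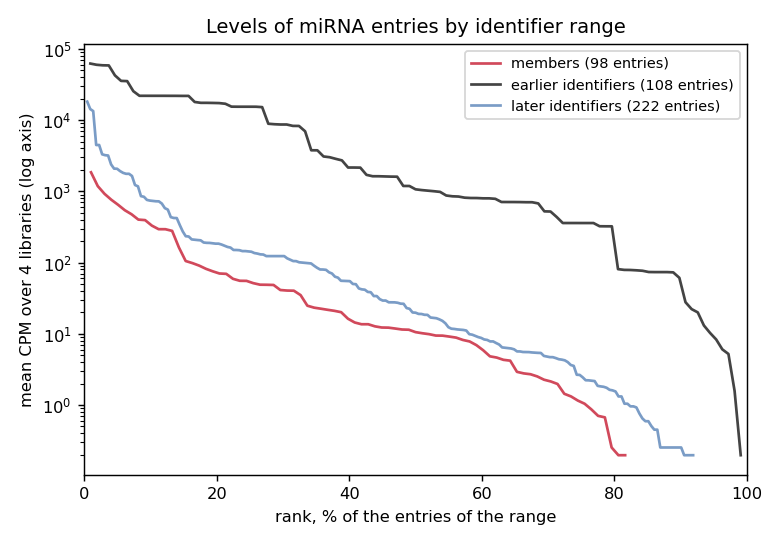
Mean CPM over the 4 small RNA libraries (log axis) of entries with counts, ordered within each identifier range, with rank as a percentage of all entries of that range (98 members, 108 earlier, 222 later). The member line starts at 1848 CPM and ends early because 18 members had no counts.

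The members' share of the small RNA counts was larger in fve-8, and 3 members made up 0.334 of the 0.358 percentage points of difference. Members held 1.32% (95% exact binomial interval 1.28 to 1.35%) and 1.05% (1.02 to 1.08%) of the counts in fve-8 replicates 1 and 2, against 0.770% (0.755 to 0.786%) and 0.877% (0.859 to 0.896%) in WT replicates 1 and 2. The intervals cover counting error only. How reads that match several entries were counted is not known, so the totals under these shares may hold some reads more than once. Both fve-8 libraries lay above both WT libraries, with means of 1.18% ± 0.191 in fve-8 and 0.824% ± 0.0756 in WT (SD, n = 2 each). The exact two-sided permutation p was 0.333, the smallest that 2 against 2 libraries can give. Leaving out fve-8 replicate 1 gave a difference of 0.223 percentage points.

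Counted alone, MIMAT0004265, MIMAT0004303 and MIMAT0003933, the members called higher in fve-8, held 0.373% and 0.381% of counts in fve-8 and 0.0415% and 0.0439% in WT. The other members held 0.943% and 0.666% in fve-8 and 0.729% and 0.833% in WT. Their genotypes overlapped, with means of 0.805% ± 0.196 in fve-8 and 0.781% ± 0.0739 in WT (SD, n = 2 each). Those 3 members were chosen for their rise in these same libraries, and taking them out by itself narrows the difference in the rest. This split is therefore a description and not a test.

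**Figure D2:**
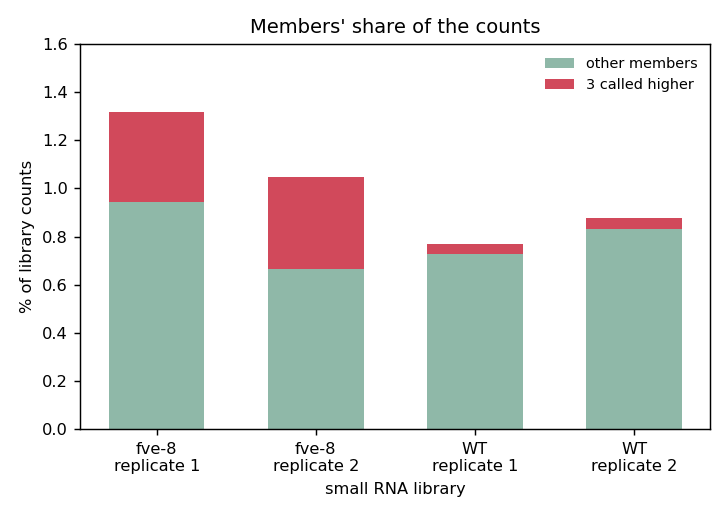
Percentage of each small RNA library's counts on members, as stacked bars from 0 (the 3 members called higher above the other members). The upper segment is 0.373% and 0.381% in fve-8 and 0.0415% and 0.0439% in WT, while the lower segment overlaps between genotypes.

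Of the 46 tested members, fve-8 had 3 called higher and 1 called lower. A call is an adjusted p under 0.05 (edgeR quasi-likelihood, Benjamini-Hochberg over all 271 tested entries). Among all tested entries 9.96% were called, 7.75% higher and 2.21% lower, so the members' 8.70% was near that rate. Of the 108 earlier entries, 86 had counts near-equal to another entry's (at least 100 counts in all, within 2 counts or 5% in every library). None of the called members did. Entries with near-equal counts may hold the same reads, so the rate over all tested entries may count some changes more than once. By size of change, the 3 members called higher ranked 9, 10 and 11 among all tested entries. The entries above them include MIMAT0000938 to MIMAT0000943, with near-equal mean CPM (358 to 359) and log2 fold changes (3.97 to 3.98). Those entries may hold the same reads, so the ranks are not among independent entries.

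MIMAT0004303 had 1651 and 1663 CPM in fve-8 replicates 1 and 2, from 616 and 703 counts, against 205 and 165 CPM in WT replicates 1 and 2, from 260 and 163 counts. The fve-8 libraries were alike and far above both WT libraries. The log2 fold change was 3.16 ± 0.23 (SE), an 8.94-fold difference (edgeR adjusted p = 2.49e-06). In fve-8 replicate 2 it was as abundant as MIMAT0004277, the member with the highest mean CPM (1661 CPM there).

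MIMAT0003933 stood at 1008 and 1304 CPM in fve-8, against 132 and 145 CPM in WT. Again the genotypes were far apart, with more spread between the fve-8 libraries. The log2 fold change was 3.06 ± 0.26, or 8.37-fold (edgeR adjusted p = 2.49e-06).

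MIMAT0004265 was measured at 1109 and 856 CPM in fve-8 and at 82.8 and 120 CPM in WT. It had the largest change of any tested member, with a log2 fold change of 3.28 ± 0.30, or 9.70-fold (edgeR adjusted p = 4.21e-06). It was no longer called without fve-8 replicate 1 (3.09, adjusted p = 0.0602), whereas the calls of MIMAT0004303 and MIMAT0003933 were kept when any 1 of the 4 libraries was left out.

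MIMAT0004239, the second most abundant member, fell. It had 992 and 757 CPM in fve-8, against 1448 and 1531 CPM in WT, so that every fve-8 library was below every WT library. The log2 fold change was -0.77 ± 0.21 (edgeR adjusted p = 0.0328), a value 1.70-fold lower in fve-8. The call ended without fve-8 replicate 1 (-0.97, adjusted p = 0.0728), WT replicate 1 (-0.88, adjusted p = 0.141) or WT replicate 2 (-0.73, adjusted p = 0.348). In the authors' deposited table its log2 fold change was -0.78 and its adjusted p 0.618.

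**Figure D3:**
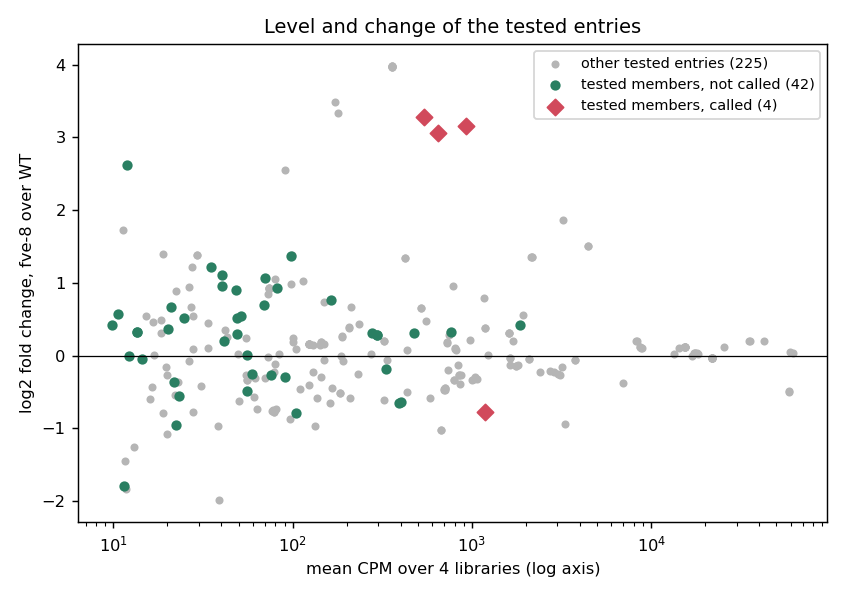
Log2 fold change of fve-8 over WT against mean CPM over the 4 libraries (log axis) for the 271 tested entries: 4 called members, 42 members not called, and 225 entries outside the range. The 3 called higher lie between 3.06 and 3.28, apart from the other members of similar level.

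Tested members with identifiers next to those of the risers were not called. MIMAT0004302, 1 number below MIMAT0004303, had 812 and 880 CPM in fve-8 and 664 and 689 CPM in WT, with a log2 fold change of 0.32 ± 0.21 (edgeR adjusted p = 0.397). MIMAT0003934, 1 number above MIMAT0003933, had 576 and 478 CPM in fve-8 and 414 and 434 CPM in WT, with a log2 fold change of 0.31 ± 0.25 (edgeR adjusted p = 0.509). In both, the fve-8 libraries were above the WT libraries by less than 2-fold. Next to MIMAT0004265, MIMAT0004264 had 37.5 and 54.4 CPM in fve-8 and 59.9 and 69.8 CPM in WT, lower without overlap and with a log2 fold change of -0.49 ± 0.47 (edgeR adjusted p = 0.632). The other tested neighbours, MIMAT0003932 and MIMAT0004304, had log2 fold changes of -0.56 ± 0.59 and -0.04 ± 0.75. MIMAT0004266, 1 number above MIMAT0004265, had too few counts for a test. It was at 18.8 and 14.2 CPM in fve-8 and 7.88 and 8.09 CPM in WT, higher without overlap. The files do not say whether adjoining identifiers belong to the same hairpin. Whether the changes of adjoining entries differ was not tested.

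Among the abundant members that were not called was the top one, MIMAT0004277. It had 2570 and 1661 CPM in fve-8, against 1570 and 1590 CPM in WT. Replicate 1 of fve-8 stood apart, and replicate 2 was only just above the WT libraries. The log2 fold change of 0.42 ± 0.22 had an edgeR adjusted p of 0.301, and without fve-8 replicate 2 the entry was called higher (0.65, adjusted p = 0.00800).

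MIMAT0004269 had 287 and 331 CPM in fve-8 and 369 and 332 CPM in WT. The fve-8 libraries lay just under the WT libraries, with a log2 fold change of -0.18 ± 0.28 (edgeR adjusted p = 0.784).

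MIMAT0002113 and MIMAT0002114 each had 480 CPM in fve-8 replicate 1 and 166 CPM in fve-8 replicate 2, around WT values of 244 and 284 or 285 CPM. The fve-8 replicates thus lay on either side of WT, and the log2 fold change was 0.28 ± 0.42 for each (edgeR adjusted p = 0.775 and 0.777). Without fve-8 replicate 1 it was -0.67 for each, and without fve-8 replicate 2 it was 0.80 for each and called (adjusted p = 0.0329 and 0.0330).

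MIMAT0004309 had 386 and 241 CPM in fve-8 and 419 and 556 CPM in WT. MIMAT0004310 was at 378 and 237 CPM in fve-8, against 412 and 549 CPM in WT. Both were lower in fve-8 without overlap, with log2 fold changes of -0.64 ± 0.30 and -0.65 ± 0.31, and neither was called (edgeR adjusted p = 0.295 for each). With a filter of at least 50 counts in 2 libraries they were called lower (adjusted p = 0.0449 and 0.0444).

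**Figure D4:**
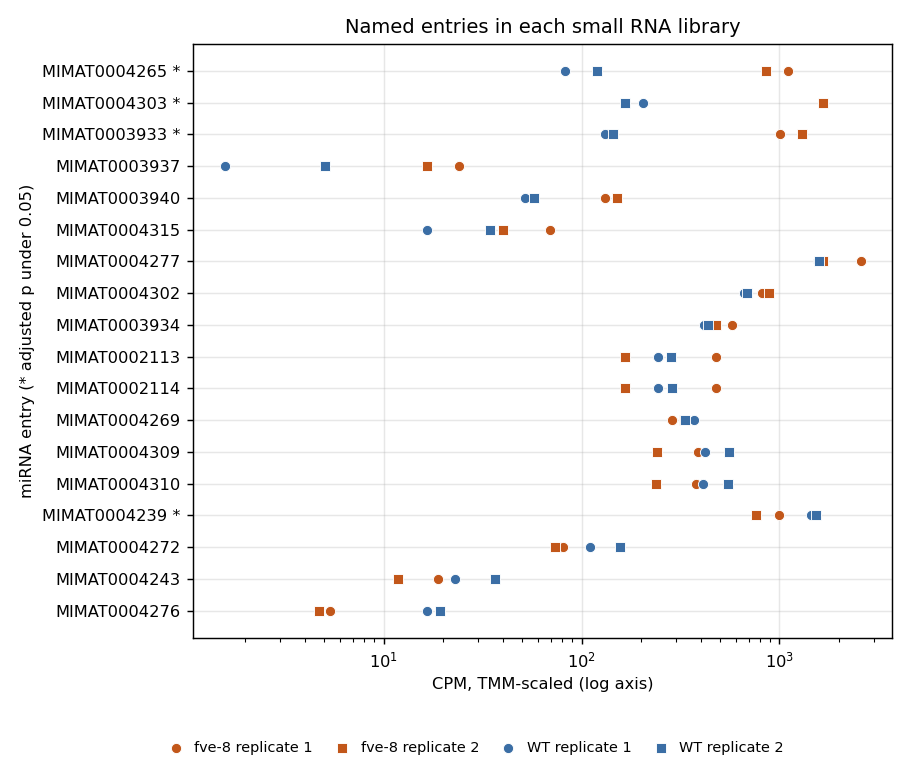
CPM (log axis) of the 18 members chosen by the naming rule in each of the 4 small RNA libraries, ordered by log2 fold change with the highest at the top; orange marks fve-8, blue WT, and an asterisk an adjusted p under 0.05. MIMAT0004265, MIMAT0004303 and MIMAT0003933 have the widest gaps between genotypes among the abundant members, and both MIMAT0002113 and MIMAT0002114 have fve-8 libraries on either side of WT.

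Scarcer members had wide errors. Those named here were picked for large changes without overlap between the genotypes. MIMAT0003940 had 131 and 151 CPM in fve-8, against 52.0 and 57.7 CPM in WT, from 49 to 66 counts in each library. Its genotypes were well apart, with a log2 fold change of 1.37 ± 0.40, just short of the threshold (edgeR adjusted p = 0.0526). DESeq2 (1.35, adjusted p = 0.0154) and the limma-voom fit (1.37, adjusted p = 0.0329) called it higher. So did edgeR with RLE size factors (adjusted p = 0.0202) and with TMM factors from entries outside the members (adjusted p = 0.0336). The edgeR fits without a filter (adjusted p = 0.0104) and with at least 50 counts in 2 libraries (adjusted p = 0.0189) also called it. The likelihood-ratio test (adjusted p = 0.00634) and edgeR with 1 entry kept per group of near-identical counts (adjusted p = 0.0355) did too. With library totals (adjusted p = 0.0542), with the replicate block (adjusted p = 0.129) and with any 1 library left out (adjusted p = 0.0627 to 0.634) it was not called, and in the authors' deposited table its adjusted p was 0.0334.

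MIMAT0003937 had 24.1 and 16.6 CPM in fve-8 from 9 and 7 counts, against 1.58 and 5.06 CPM in WT from 2 and 5 counts. It passed the filter on its fve-8 libraries only. The log2 fold change was 2.62 ± 0.86 (edgeR adjusted p = 0.0910), it was called higher without the filter, with the likelihood-ratio test and with limma-voom but under no other alternative that gave an adjusted p, and the adjusted p in the authors' deposited table was 0.0109.

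MIMAT0004276 is the reverse case. It had 5.36 and 4.73 CPM in fve-8 from 2 counts in each library, against 16.6 and 19.2 CPM in WT from 21 and 19 counts. It passed the filter on its WT libraries only, and its log2 fold change of -1.79 ± 0.83 was not called (edgeR adjusted p = 0.295).

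MIMAT0004315 had 69.7 and 40.2 CPM in fve-8 and 16.6 and 34.4 CPM in WT (log2 fold change 1.11 ± 0.57). MIMAT0004272 had 80.4 and 73.3 CPM in fve-8 and 110 and 156 CPM in WT (-0.79 ± 0.40). MIMAT0004243 had 18.8 and 11.8 CPM in fve-8 and 22.9 and 36.4 CPM in WT (-0.95 ± 0.64). These members too were picked for a lack of overlap between the genotypes, and none was called by edgeR (adjusted p = 0.301, 0.301 and 0.399).

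Over all 46 tested members, the genotypes did not overlap in 17 that were higher and 11 that were lower in fve-8. Those are 37.0% and 23.9% of the tested members, where 27.3% and 26.6% of all tested entries were higher or lower without overlap. The log2 fold change was above 0 in 31 tested members and below 0 in 15, against 153 and 118 of all 271 tested entries. The 42 members that were not called ran from -1.79 to 2.62, and 6 of them differed by more than 2-fold.

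The median log2 fold change of the tested members was 0.32, beside 0.09 for all tested entries, a gap of 0.23. Without fve-8 replicate 1 the median was -0.01 for the members and -0.17 for all tested entries, a gap of 0.16, and 2 members were called. Without fve-8 replicate 2 the medians were 0.41 and 0.02, a gap of 0.38, and 11 members were called. Among 36 members tested in every such fit the median was 0.34 with all libraries, 0.06 without fve-8 replicate 1 and 0.63 without fve-8 replicate 2. Leaving out WT replicate 1 gave a median of 0.22 for these 36 members, and leaving out WT replicate 2 gave 0.43. In WT, replicate 1 had a higher CPM than replicate 2 in 9 tested members (19.6%, against 46.5% of all tested entries). Of the tested members 29 had a higher CPM in fve-8 replicate 1 than in fve-8 replicate 2 (63.0%, against 69.7% of all tested entries). MIMAT0004245 is an extreme case, chosen after its values were seen, with 91.1 and 7.10 CPM in fve-8 from 34 and 3 counts, against 18.9 and 22.3 CPM in WT.

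**Figure D5:**
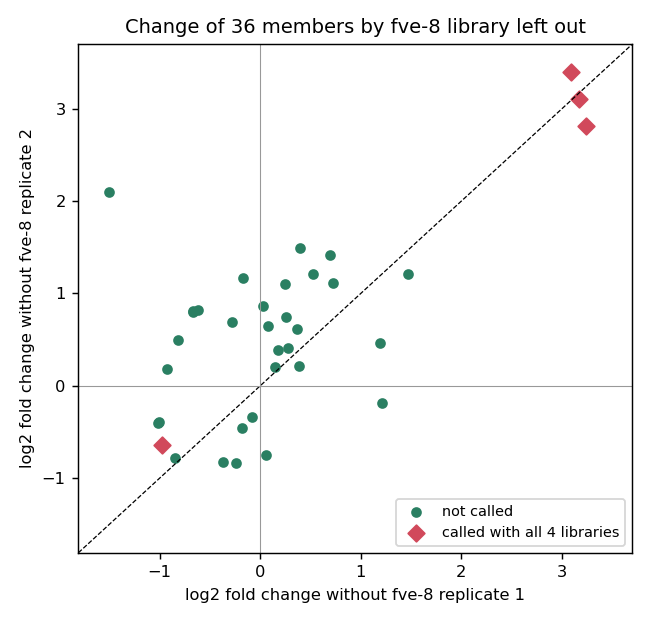
Log2 fold change of fve-8 over WT without fve-8 replicate 1 (horizontal) and without fve-8 replicate 2 (vertical) for the 36 members tested in every fit that leaves out a library; the dashed line marks equal values. The 3 members called higher stay near 3 on both axes, while most others lie above the line. Over all 36 members the medians are 0.06 (horizontal) and 0.63 (vertical).

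The numbers of members detected overlapped between the genotypes once depth, here the total on mature miRNA entries, was set equal. At least 1 count was found for 69 and 67 members in fve-8, against 75 and 74 in WT, whose totals on miRNA entries were larger. When each library was thinned to 376797 counts, 69 and 66.2 members were expected in fve-8 and 66.2 and 67.8 in WT. The means were 67.6 ± 1.96 in fve-8 and 67.0 ± 1.13 in WT (SD, n = 2 each, exact two-sided permutation p = 0.667). With 2 libraries against 2 that test cannot go below 0.333, so it says nothing about the absence of a difference.

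Too few counts for a test were left to 34 members, with 1 to 43 counts over the 4 libraries and a median of 10. Of these, 7 had no count in either fve-8 library and 1 had none in either WT library. Only MIMAT0004321 of the 7 had more than 5 counts in WT. It had 0 counts in both fve-8 libraries, against 9 and 10 counts in WT, at least 2.26-fold lower in fve-8 when 3 counts over the fve-8 group are taken as the floor. In the authors' deposited table its adjusted p was 0.0334.

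The authors' deposited table lists 5 members higher and 1 lower in fve-8 at an adjusted p under 0.05, where 7.42% of its 391 entries with an adjusted p were called. Those higher include the 3 called here, MIMAT0003940 and MIMAT0003937, and the lower one is MIMAT0004321.

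Some members had counts that tracked another entry. Of 30 members with at least 100 counts in all, 6 had counts within 2 counts or 5% of another entry in every library. MIMAT0002113 and MIMAT0002114 had the same counts in 3 libraries and differed by 1 count in the other, and MIMAT0004309 and MIMAT0004310 formed the second pair within the range. MIMAT0004302 matched MIMAT0022417 and MIMAT0003940 matched MIMAT0022420, both later entries. Below that total, MIMAT0004280 and MIMAT0004282 had identical counts (4 and 8 in fve-8, 7 and 19 in WT). MIMAT0004263 (1 and 3 in fve-8, 15 and 11 in WT) and MIMAT0004283 (2 and 7 in fve-8, 3 and 15 in WT) each had the same counts as a later entry, MIMAT0017741 and MIMAT0018504. These were all the members with at least 10 counts whose counts equalled those of another entry. None of the 4 called members was in a pair by either rule. By the first rule (at least 100 counts in all, within 2 counts or 5%), 86 of the 108 earlier and 33 of the 222 later entries were grouped with another entry. The sources used here do not say how reads that match several entries were counted, so paired entries may hold the same reads and are not independent.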

How the data were processed

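The authors deposited raw counts, as whole numbers, for mature miRNA entries (4 libraries) and RNA features (6 libraries). Tools named in the submitters' processing notes are TopHat2, SAMtools, HTSeq and edgeR. Their versions, the build and the treatment of reads shared by entries are not given in these sources. The authors' deposited table also holds log2 fold changes and adjusted p-values, and 10 deposited columns of normalized values were not used.

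All 428 entries were fitted together in edgeR 4.0.16 (R 4.3.3) with genotype as the only term: filterByExpr (about 14.4 CPM in 2 libraries), TMM factors, quasi-likelihood test, Benjamini-Hochberg adjustment. SE is the absolute log2 fold change over the square root of F. CPM uses TMM-scaled totals. RNA counts gave CPM only. The fit was also run on simulated counts, and its recovery of the changes set there is not reported here. Alternatives used DESeq2 1.42.0 and limma 3.58.1, other scalings and filters, and left-out libraries. Detection at equal depth is a hypergeometric expectation. Replicates differed by more than sampling noise (chi-square per degree of freedom of 5.20 in fve-8 and 2.17 in WT over the members, and of 17.3 in fve-8 and 26.3 in WT over all entries).

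Members and lists were chosen with earlier results of these data known. Named members were the called ones, the 12 most abundant, and up to 6 per direction with the largest change without overlap. That rule allowed 2 identifiers per direction where names are missing. Further identifiers are printed because the members are known by identifier alone.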

Additional observations from a re-analysis of the deposited data

How the results depend on the processing

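The called members numbered 4 with the full set of libraries and 4 to 6 under other scalings, no filter, limma-voom, DESeq2 and the likelihood-ratio test, each keeping the same 4. A filter of at least 50 counts in 2 libraries gave 7 called members, 4 higher and 3 lower, of 23 tested. Leaving out 1 library gave 2 to 11 called members and a median log2 fold change of -0.010 to 0.443. The difference in the members' share ran from 0.223 to 0.493 percentage points and that in detected members from -0.789 to 1.98. MIMAT0002113 and MIMAT0002114 turned to -0.67 without fve-8 replicate 1 and were at 0.80 without fve-8 replicate 2. The cause of these shifts was not tested.

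The replicate block left 4 members called, with a median log2 fold change of 0.34. Deviations of same-numbered libraries had a correlation of -0.02 over all 271 tested entries and 0.10 over the 46 tested members. With 2 pairs and no shared batch in the labels, this does not show whether the numbers pair the samples. With 1 entry per near-identical group, an alternative chosen after seeing the data, 5 members were called. The planned comparisons of targets and precursor transcripts were not run, since no identifier could be matched to a named miRNA. Fits without 1 library leave a lone library whose spread is assumed to be that of the other genotype. Depth limits the members below 10 CPM, which rest on a few counts in the fve-8 libraries.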
